A study of Homo sapiens with 120 samples.

Results

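The E2F transcription factors and the pocket proteins were followed in TK6 cells across every chemical, dose and time of a study of genotoxic exposure. The 10 genes are E2F1, E2F2, E2F3, E2F5, E2F6, E2F7, E2F8, RB1, RBL1 and RBL2, chosen by name. Earlier results of these data were known when the genes were chosen. Each was read from the brightest probe set that names that gene alone, by its mean log2 signal over all 120 arrays. They are 10 of 19775 genes with such a probe set, and all 10 passed the filter on dim genes that left 14023 genes to test. TK6 is a human B lymphoblastoid cell line with working p53. Cultures were treated with formaldehyde (FA) at 50, 100 or 200 µM, methyl methanesulfonate (MMS) at 80, 160 or 320 µM, ethyl methanesulfonate (EMS) at 1, 2 or 4 mM, colcemid, or vincristine. Treatment lasted 4 h or 24 h, and each chemical had its own untreated TK6 cultures at both times. MMS and EMS alkylate DNA and break chromosomes (clastogens), whereas colcemid and vincristine are spindle poisons that change chromosome number (aneugens). The colcemid and vincristine doses are labelled as 1, 2 and 4 µg/ml, but leading zeros in the labels make the place of a decimal point unclear, so these doses are ranked here and not quoted as concentrations. Each of the 40 groups has 3 arrays, labelled as experiments 1, 2 and 3. The labels do not say how far the experiments were independent cultures, so p-values measure the spread between these arrays.

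E2F factors bind the promoters of genes for DNA synthesis and cell cycle entry, mostly together with a DP partner. E2F1, E2F2 and E2F3 activate these genes until the retinoblastoma protein RB1 binds and silences them, and cyclin-dependent kinases undo that binding in late G1. E2F5 acts mainly as a repressor together with the RB1 relatives RBL1 (p107) and RBL2 (p130), which also hold the DREAM complex, a repressor of cell cycle genes in resting and p53-arrested cells. E2F6 represses without a pocket protein, through Polycomb proteins. The atypical factors E2F7 and E2F8 bind DNA without a DP partner and repress E2F targets, and E2F7 is itself a known target of p53.

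Promoters are shown for the members that held an E2F word searched for here, and for E2F7, the member that rose most. Each is the 250 bases before the RefSeq gene start in GRCh38.p14, written 5′ to 3′ along the gene, and all 4 genes lie on the minus strand. The words searched on both strands were TTTCGCGC and TTTGGCGC, and matches are in capitals. They were found in 247 of 24882 promoters of that length (0.993%) and in 3 of the 7 members with a usable RefSeq entry.
E2F1, chr20:33686386-33686635: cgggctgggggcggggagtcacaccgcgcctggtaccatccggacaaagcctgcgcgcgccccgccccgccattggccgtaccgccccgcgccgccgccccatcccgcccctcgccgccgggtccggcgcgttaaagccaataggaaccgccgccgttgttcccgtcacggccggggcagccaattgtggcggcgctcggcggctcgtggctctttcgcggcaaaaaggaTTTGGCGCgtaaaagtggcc
E2F2, chr1:23531234-23531483: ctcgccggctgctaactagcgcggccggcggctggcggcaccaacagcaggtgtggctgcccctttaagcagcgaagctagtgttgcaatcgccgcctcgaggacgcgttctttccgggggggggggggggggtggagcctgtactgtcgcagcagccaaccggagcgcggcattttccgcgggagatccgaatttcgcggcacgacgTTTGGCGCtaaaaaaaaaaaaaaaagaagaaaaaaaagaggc
RBL1, chr20:37095998-37096247: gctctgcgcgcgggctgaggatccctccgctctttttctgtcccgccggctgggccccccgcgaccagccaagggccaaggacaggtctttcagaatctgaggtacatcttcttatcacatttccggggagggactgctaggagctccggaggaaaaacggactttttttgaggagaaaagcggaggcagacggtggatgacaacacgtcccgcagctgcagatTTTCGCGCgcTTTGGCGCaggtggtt
E2F7, chr12:77065570-77065819: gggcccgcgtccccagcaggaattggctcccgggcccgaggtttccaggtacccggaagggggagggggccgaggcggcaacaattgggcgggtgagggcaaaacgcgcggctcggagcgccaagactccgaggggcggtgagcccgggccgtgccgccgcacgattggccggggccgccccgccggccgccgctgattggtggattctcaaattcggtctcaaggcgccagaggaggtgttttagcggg
In E2F1 the word begins 20 bases before the gene start, and in E2F2 it begins 42 bases before it. RBL1 holds both words, one beginning 26 bases and one 16 bases before the start. A match describes these letters and is not evidence of binding. The windows of E2F3, E2F6, E2F7 and RBL2 hold neither word. Other forms of the E2F site were not searched for, so these windows may still hold one.

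The labelled cell type was looked at through marker genes, whose probe levels cannot be ranked against each other and so do not settle it. The B cell markers MS4A1, PAX5, CD79A, CD22 and CD79B had median log2 signals of 12.0, 11.5, 8.99, 8.76 and 8.67. Among markers of other lineages, T cell CD3D had a median of 6.42, monocyte CD14 of 5.22 and epithelial EPCAM of 3.61, while NKG7 had 8.07, KRT8 8.55 and COL1A1 8.36. All 3 p53 targets looked at as a check, CDKN1A, MDM2 and GDF15, rose at 24 h of the highest dose of each of the 5 chemicals. At 4 h of 200 µM FA, CDKN1A and GDF15 rose (0.21 ± 0.064 and 1.38 ± 0.13) while MDM2 fell (-0.96 ± 0.084, adjusted p = 3.74e-09, or -0.85 without the untreated array of experiment 3). A ratio of the 3′ to the 5′ control probe sets of ACTB, a sign of RNA quality, moved with some treatments at 24 h. On the log2 scale it was 1.88 ± 0.26 at 320 µM MMS and 1.28 ± 0.0083 at 160 µM, against 0.941 ± 0.079 in untreated cells. At 200 µM FA it was 0.768 ± 0.070 against 0.481 ± 0.024 in untreated cells (mean ± SD, n = 3 each). At 4 mM EMS it was 0.664 ± 0.034 against 0.521 ± 0.072 in untreated cells. The ratio was also higher across the MMS set, untreated cells included. Untreated means were 0.837 at 4 h and 0.941 at 24 h in that set. In the other sets they were 0.287 to 0.443 at 4 h and 0.463 to 0.540 at 24 h. The part of the ratio in the 24 h results of MMS, EMS and FA, and in setting MMS beside other sets, was not tested. One untreated array stood apart within its group, that of FA experiment 3 at 4 h. Its ACTB value was 0.680, beside 0.350 and 0.299 in the other untreated FA arrays at that time. Values without that array are given for the members that FA changed at 4 h and for the gene lists.

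In untreated cells the members differed between 24 h and 4 h by at most 0.27. All values below are log2 signals and all changes are differences of mean log2 signals with their standard error (SE) from limma. A member was called when its adjusted p, after Benjamini-Hochberg adjustment over all 14023 genes, was under 0.05. Between 24 h and 4 h of culture, 7 of 10 members were called in the 30 untreated arrays, against 53.6% of all tested genes. RBL2 was higher at 24 h by 0.20 ± 0.040 (adjusted p = 0.000157) and E2F7 fell by 0.27 ± 0.036 (adjusted p = 1.99e-07). The other 5 that were called, E2F2, E2F5 and RB1 on the higher side and E2F6 and RBL1 on the lower, moved by less than 0.20. E2F1 had untreated signals of 8.65, 8.60 and 8.67 in the MMS set at 4 h, below all other untreated arrays, and each treatment was set against the untreated arrays of its own set and time.

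Across the 30 comparisons of a dose with untreated cells, 125 member calls were made. Between 0% and 58.5% of all tested genes were called in these comparisons, and each share is given below. Calls per gene were not counted for genes outside the members. RBL2 was called higher in 14 comparisons and lower in 1, E2F7 higher in 13 and lower in 6, and E2F8 higher in 8 and lower in 7. E2F5 was called lower in 15 and higher in 0, and RBL1 lower in 9 and higher in 3. E2F3 was higher in 8 and lower in 1, RB1 higher in 7 and lower in 1, E2F6 higher in 5 and lower in 8, E2F2 higher in 3 and lower in 8, and E2F1 higher in 4 and lower in 4. All of these describe RNA from whole cultures, where fewer cells with a transcript and less of it per cell cannot be told apart.

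**Figure D1:**
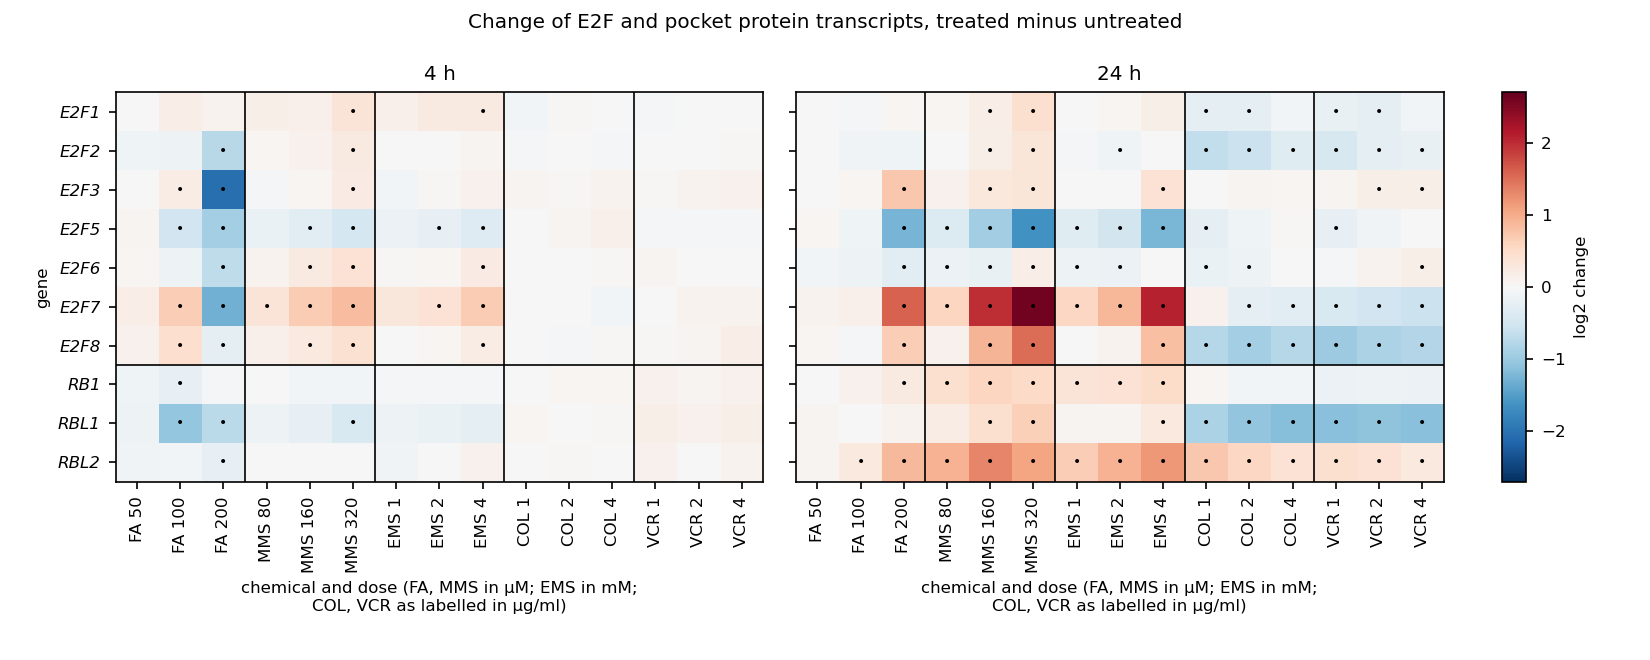
Log2 change of each member, treated minus untreated cells, at 4 h (left) and 24 h (right). Columns are chemical and dose, colour gives the change, and a dot marks an adjusted p under 0.05. RBL2 is red at 24 h under all 5 chemicals, while E2F7 and E2F8 are red there at 200 µM FA and the upper doses of MMS and EMS and mostly blue with colcemid (COL) and vincristine (VCR).

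The number of members called rose with the dose of FA, MMS and EMS at 4 h, and at 24 h it was higher at the highest than at the lowest dose. With MMS at 24 h, 5 members were called at 80 µM (28.5% of all tested genes), 10 at 160 µM (47.3%) and 10 at 320 µM (58.5%). EMS at 24 h gave 5 calls at 1 mM (24.3% of genes), 6 at 2 mM (34.6%) and 7 at 4 mM (51.5%). FA at 24 h gave 0 at 50 µM, where limma called 0% of genes and 385 genes had an unadjusted p under 0.05, then 1 at 100 µM (3.81%) and 7 at 200 µM (47.7%). At 4 h, MMS gave 1, 4 and 8 calls from the lowest to the highest dose, with 1.6%, 13.5% and 28.6% of genes called. EMS at 4 h gave 0, 2 and 5 calls, with 0.143%, 1.06% and 9.6% of genes. FA at 4 h gave 0, 6 and 8 calls, with 0.82%, 40.7% and 53.8% of genes. Colcemid called 7, 7 and 5 members at 24 h (37.3%, 37.7% and 36.4% of genes), and vincristine 7, 7 and 7 (37.4%, 36.9% and 35.7%). At 4 h no member was called under either spindle poison at any dose, where 0%, 0.0642% and 0.913% of genes were called with colcemid and 0%, 0.00713% and 0.25% with vincristine. Split by direction at 24 h of the highest dose, MMS raised 9 members (30.8% of genes rose) and lowered 1 (27.7% fell), EMS raised 6 (27.8%) and lowered 1 (23.6%), and FA raised 5 (23.8%) and lowered 2 (23.9%). Colcemid raised 1 (18% of genes rose) and lowered 4 (18.3% fell), and vincristine raised 3 (17.5%) and lowered 4 (18.2%). With 200 µM FA at 4 h, 0 members rose (29.6% of genes) and 8 fell (24.2%), while 320 µM MMS raised 6 (15.3%) and lowered 2 (13.4%). With the mean of probe sets, RB1 was called higher at 4 h of 200 µM FA (0.26, adjusted p = 0.0101), against an uncalled -0.05 ± 0.065 from its brightest probe set. EMS at 4 mM and 4 h raised 4 members (5.55%) and lowered 1 (4.05%). With the experiment number as a block, 1 member was called at 4 h of the highest vincristine dose: E2F8, which was higher by 0.19 (adjusted p = 0.0244).

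E2F1, the best studied activator, moved little. After 24 h of 320 µM MMS its signals were 9.21, 9.34 and 9.20, against 8.68, 8.81 and 8.98 in untreated cells. All 3 treated arrays lay above the untreated ones, and the rise was 0.43 ± 0.069 (adjusted p = 1.48e-05). The same dose at 4 h raised it by 0.34 ± 0.069 (adjusted p = 0.000701), and 4 h of 4 mM EMS raised it by 0.24 ± 0.071 (adjusted p = 0.0352). The EMS call was lost without any 1 of the 3 experiments (adjusted p 0.074 to 0.469). It was also lost with no filter on dim genes (adjusted p = 0.0585) and with the mean of probe sets (adjusted p = 0.0509). The smallest call, at 24 h of 160 µM MMS (0.17 ± 0.069, adjusted p = 0.0491), was lost without experiment 1 or 2 (adjusted p 0.157 to 0.313) and its arrays overlapped those of untreated cells. That call was lost too with no filter on dim genes (adjusted p = 0.0736), with the mean of probe sets (adjusted p = 0.091) and with quantile normalization repeated (0.10, adjusted p = 0.366). Spindle poisons moved E2F1 the other way at 24 h. At the middle colcemid dose its signals were 8.80, 8.82 and 8.84, against 9.05, 9.17 and 9.05 in untreated cells, without overlap and lower by 0.27 on average (change -0.27 ± 0.047, adjusted p = 9.61e-05). The lowest colcemid dose gave -0.23 ± 0.047, and the lowest and middle vincristine doses -0.20 ± 0.069 and -0.23 ± 0.069. Both vincristine calls were lost when single experiments were left out, with adjusted p 0.167 to 0.228 for the lowest dose without experiment 1 or 3 and 0.0687 to 0.157 for the middle dose without experiment 2 or 3. No highest-dose change under a spindle poison was called for E2F1, with 95% intervals of -0.17 to 0.02 for colcemid and -0.22 to 0.07 for vincristine. FA did not change E2F1 past the threshold at either time. At 200 µM and 4 h its 95% interval was -0.05 to 0.26, while at 100 µM and 4 h a change of 0.17 ± 0.074 was short of the threshold (adjusted p = 0.0706) and passed it without the untreated array that stood apart (0.22, adjusted p = 0.0321).

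E2F2, a second activator, fell under both spindle poisons and in early FA. After 24 h its mean signal was 10.86 ± 0.011 in untreated cells and 10.20 ± 0.043, 10.27 ± 0.064 and 10.54 ± 0.0090 at the lowest, middle and highest colcemid dose (SD, n = 3 each). The lowest dose gave the deepest fall, -0.66 ± 0.039 (adjusted p = 5.32e-11), and the highest the smallest, -0.32 ± 0.039 (adjusted p = 1.43e-06). The difference between the highest and the lowest dose was itself called (0.34 ± 0.039, adjusted p = 6.46e-06), as were 6 of 10 members in that contrast against 13.7% of genes. Vincristine ran the same way in its own set, with changes of -0.42 ± 0.055, -0.24 ± 0.055 and -0.21 ± 0.055 from the lowest to the highest dose. The highest minus the lowest dose of vincristine was 0.22 ± 0.055 (adjusted p = 0.0112), one of 4 members called where 13.6% of genes were. Without experiment 2, the middle and highest vincristine doses were no longer called (adjusted p = 0.0733 and 0.0789). After 4 h of 200 µM FA, E2F2 had signals of 10.10, 10.16 and 10.14, against 10.85, 10.80 and 11.01 in untreated cells. The 3 treated arrays lay below every untreated one, with a change of -0.75 ± 0.055 (adjusted p = 2.26e-10) and -0.69 without the array that stood apart. At 24 h of 200 µM FA a change of -0.12 was not called. It was called with the mean of probe sets (-0.16, adjusted p = 0.011), in 1 fit of all arrays (adjusted p = 0.0197) and without that array (adjusted p = 0.0354). At 4 h of 100 µM FA, E2F2 was called lower only in alternatives, such as 1 fit of all arrays (-0.13, adjusted p = 0.0174). In 320 µM MMS, E2F2 rose by 0.25 ± 0.050 at 4 h (adjusted p = 0.000529, or 0.146 with the mean of its probe sets) and by 0.33 ± 0.050 at 24 h (adjusted p = 6.79e-06). Averaged over its 3 probe sets the 24 h value was -0.02, so the direction at 24 h rests on the brightest probe set. The same holds at 160 µM and 24 h (0.15 ± 0.050, also lost without experiment 1 or 3, adjusted p 0.145 to 0.171). A small fall at 24 h of 2 mM EMS (-0.12 ± 0.046) was lost without any 1 experiment (adjusted p 0.0785 to 0.248).

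E2F3, the third of the activators, showed the deepest single fall of any member. After 4 h of 200 µM FA it had signals of 7.49, 7.65 and 7.41, against 9.52, 9.54 and 9.59 in untreated cells. No treated array came near the untreated ones, and the change of -2.03 ± 0.069 amounts to a 4.09-fold fall (adjusted p = 1.19e-15). Without the array that stood apart it was -2.01. At 100 µM the level was not lowered, with signals of 9.71, 9.73 and 9.79 and a change of 0.19 ± 0.069 (adjusted p = 0.0287), a call lost without any 1 experiment (adjusted p 0.0531 to 0.134) and 0.21 without the array that stood apart (adjusted p = 0.0342). The 2 doses differed by -2.23 ± 0.069 (200 minus 100 µM, adjusted p = 7.72e-16). By 24 h the direction at 200 µM had turned. Signals were then 10.22, 9.93 and 10.16, against 9.31, 9.39 and 9.42 in untreated cells, a rise of 0.73 ± 0.069 without overlap (adjusted p = 1.29e-08). E2F3 also rose at 24 h of 4 mM EMS, by 0.38 ± 0.066 (adjusted p = 4.11e-05), and at 160 and 320 µM MMS, by 0.28 ± 0.081 and 0.33 ± 0.081. The 320 µM call was lost without experiment 3 (adjusted p = 0.108), and a 4 h rise at that dose (0.22 ± 0.081) was lost without any 1 experiment (adjusted p 0.131 to 0.162). Colcemid left E2F3 uncalled at every dose at 24 h, with changes of 0.01, 0.07 and 0.04. Vincristine raised it by 0.16 ± 0.047 and 0.16 ± 0.047 at the middle and highest dose, calls lost without experiment 1 (adjusted p = 0.287 and 0.163) and, for the highest dose, without experiment 2 (adjusted p = 0.0687). The lowest vincristine dose was called higher only with the mean of probe sets (0.16, adjusted p = 0.00816) and with quantile normalization repeated (0.14, adjusted p = 0.0082).

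**Figure D2:**
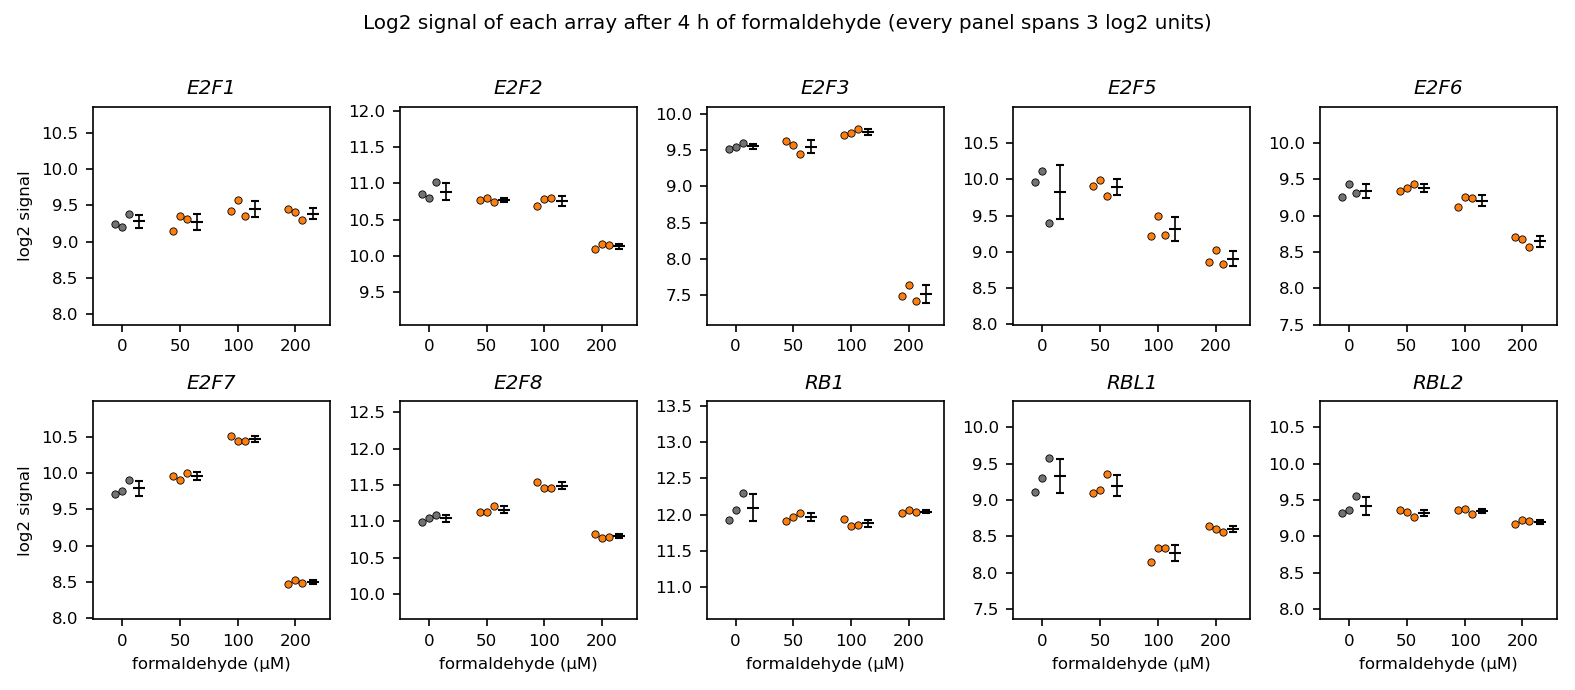
Log2 signal of each member after 4 h of formaldehyde, by dose in µM, with 0 for untreated cells in grey and treated cells in orange. Points are single arrays, the bar to their right is the mean ± SD (n = 3), and every panel spans 3 log2 units. E2F3 and E2F7 stand lowest at 200 µM, E2F7 and E2F8 are higher at 100 µM than in untreated cells, and RBL1 is lower at both upper doses.

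E2F5, the repressive E2F that pairs with the RB1 relatives, was never called higher. It fell with dose at 24 h of MMS, where its mean was 10.02 ± 0.079 in untreated cells and 9.65 ± 0.072, 9.08 ± 0.12 and 8.38 ± 0.078 at 80, 160 and 320 µM (SD, n = 3 each). Single arrays read 8.38, 8.45 and 8.30 at 320 µM, against 10.05, 10.08 and 9.93 in untreated cells. The groups were far apart, with a change of -1.64 ± 0.060, a 3.12-fold fall (adjusted p = 1.80e-15). The ACTB ratio was highest in those arrays, and its part in the fall was not tested. EMS gave the same order, with changes of -0.32 ± 0.051, -0.50 ± 0.051 and -1.22 ± 0.051 at 1, 2 and 4 mM, each without overlap. FA lowered E2F5 at 24 h only at 200 µM, where signals of 8.76, 9.00 and 8.62 stood against 10.03, 10.11 and 9.96 in untreated cells. That change was -1.25 ± 0.13 (adjusted p = 4.35e-08), and at 50 and 100 µM no change was called, with 95% intervals of -0.21 to 0.32 and -0.39 to 0.14. At 4 h E2F5 was already lower. In FA it read 9.21, 9.50 and 9.23 at 100 µM and 8.87, 9.02 and 8.83 at 200 µM, against 9.96, 10.11 and 9.40 in untreated cells. The third untreated value is the array that stood apart, and it lies within the range at 100 µM. Changes were -0.51 ± 0.13 and -0.92 ± 0.13 with it, and -0.72 and -1.13 without it, all with adjusted p under 0.05, though the 100 µM call was lost without experiment 1 (adjusted p = 0.157). After 4 h of MMS, E2F5 fell by 0.48 at 320 µM (-0.48 ± 0.060, adjusted p = 3.12e-06) and after 4 h of 4 mM EMS by 0.35 (-0.35 ± 0.051, adjusted p = 8.69e-05). Smaller 4 h falls were called at 160 µM MMS (-0.28 ± 0.060, lost without experiment 1, adjusted p = 0.195) and 2 mM EMS (-0.22 ± 0.051, lost without any 1 experiment, adjusted p 0.207 to 0.525). Under the spindle poisons E2F5 was called lower only at the lowest dose at 24 h, by 0.26 with colcemid (-0.26 ± 0.057, adjusted p = 0.00105) and by 0.22 with vincristine (-0.22 ± 0.069, lost without any 1 experiment, adjusted p 0.0547 to 0.0769). For vincristine the mean of both probe sets ended that call (-0.14, adjusted p = 0.104) and gave one at the middle dose (-0.17, adjusted p = 0.0496). With the experiment as a block the middle colcemid dose was called too (-0.12, adjusted p = 0.0469).

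E2F6, the Polycomb-linked repressor, moved by less than 0.70 in all 30 dose comparisons. Its deepest fall came at 4 h of 200 µM FA, with signals of 8.70, 8.68 and 8.56, against 9.26, 9.44 and 9.31 in untreated cells. The groups did not overlap and the change was -0.69 ± 0.061 (adjusted p = 5.12e-09), or -0.70 without the array that stood apart. FA at 200 µM still left it lower at 24 h, by 0.32 (-0.32 ± 0.061, adjusted p = 0.000187). MMS at 4 h raised E2F6, by 0.25 ± 0.051 at 160 µM and 0.39 ± 0.051 at 320 µM (adjusted p = 0.00173 and 4.16e-06, the 160 µM call lost without experiment 1 at 0.0812). With MMS at 24 h the changes were -0.16 ± 0.051 at 80 µM, -0.21 ± 0.051 at 160 µM and 0.17 ± 0.051 at 320 µM. Highest minus lowest dose gave 0.33 ± 0.051 (adjusted p = 8.59e-06), a contrast in which 8 members and 52.4% of genes were called. These small 24 h calls were fragile, since the 80 µM call was lost without experiment 1 or 2 (adjusted p 0.168 to 0.245), the 160 µM call without experiment 2 (0.0518) and the 320 µM call without experiment 1 or 3 (0.0849 to 0.14). With quantile normalization repeated the 320 µM change was 0.06 (adjusted p = 0.186). EMS at 4 mM raised E2F6 at 4 h by 0.21 ± 0.041 (adjusted p = 0.00162, lost without experiment 2 or 3 at 0.0754 to 0.0781). At 24 h of EMS it was lower by 0.13 at 1 mM and 0.16 at 2 mM, and not called at 4 mM. Leaving out experiment 3 ended both calls (adjusted p = 0.108 and 0.0848), and leaving out experiment 1 or 2 also ended the one at 1 mM (adjusted p 0.108 to 0.338). The lowest colcemid dose lowered it by 0.19 at 24 h (-0.19 ± 0.042, adjusted p = 0.00126). The middle colcemid dose gave -0.14 ± 0.042, lost without any 1 experiment (adjusted p 0.0676 to 0.101), and the highest vincristine dose 0.16 ± 0.044, lost without experiment 1 or 3 (adjusted p 0.0786 to 0.125).

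E2F7, an atypical repressor, showed the largest rise of any member. At 24 h of MMS its mean was 9.76 ± 0.094 in untreated cells and 10.35 ± 0.065, 11.74 ± 0.094 and 12.36 ± 0.086 at 80, 160 and 320 µM (SD, n = 3 each). At 320 µM the single arrays read 12.46, 12.35 and 12.29, against 9.79, 9.83 and 9.65 in untreated cells. All treated arrays at all 3 MMS doses lay above every untreated one, and the change of 2.61 ± 0.064 amounts to 6.09-fold (adjusted p = 3.74e-18). EMS raised E2F7 by 0.57 ± 0.061, 0.90 ± 0.061 and 2.09 ± 0.061 at 1, 2 and 4 mM, the last a 4.25-fold rise (adjusted p = 1.24e-16). Its arrays at 4 mM read 11.73, 11.69 and 11.67, against 9.62, 9.68 and 9.52 in untreated cells. FA raised it at 24 h only at 200 µM. There the arrays read 11.32, 11.14 and 11.24, against 9.58, 9.73 and 9.62 in untreated cells, a rise of 1.59 ± 0.061 or 3.01-fold (adjusted p = 1.07e-14). At 4 h the FA doses moved E2F7 in opposite directions. It read 10.51, 10.44 and 10.44 at 100 µM and 8.48, 8.53 and 8.49 at 200 µM, against 9.72, 9.75 and 9.90 in untreated cells. None of the 3 groups overlapped: 100 µM was higher by 0.67 ± 0.061 (adjusted p = 1.55e-08) and 200 µM gave -1.29 ± 0.061 (adjusted p = 2.04e-13), or 0.73 and -1.24 without the array that stood apart. The 2 doses differed by -1.97 ± 0.061 (200 minus 100 µM, adjusted p = 8.28e-16), in a contrast where 7 members and 34.9% of genes were called. In MMS at 4 h the rise was 0.34 ± 0.064, 0.68 ± 0.064 and 0.84 ± 0.064 from the lowest to the highest dose, the first lost without any 1 experiment (adjusted p 0.0898 to 0.227). In EMS at 4 h it was 0.39 ± 0.061 at 2 mM, lost without experiment 2 or 3 (adjusted p 0.0797 to 0.139), and 0.68 ± 0.061 at 4 mM (adjusted p = 2.32e-07). At 1 mM it was 0.30 ± 0.061 (adjusted p = 0.0512, or 0.018 with the experiment as a block). Vincristine at every dose and colcemid at the middle and highest dose lowered E2F7 at 24 h, by up to 0.57. With vincristine the changes were -0.40 ± 0.065, -0.51 ± 0.065 and -0.57 ± 0.065 from the lowest to the highest dose, each without overlap. With colcemid the lowest dose gave 0.12 ± 0.056, not called (adjusted p = 0.105), though called higher with quantile normalization repeated (0.17, adjusted p = 0.00459). The middle and highest dose gave -0.24 ± 0.056 and -0.28 ± 0.056, the middle-dose call being lost with the mean of both probe sets (adjusted p = 0.0619).

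E2F8, the other atypical factor and a partner of E2F7, rose and fell with it at the higher doses. Its mean at 24 h of MMS was 11.09 ± 0.13 in untreated cells and 11.21 ± 0.030, 12.01 ± 0.060 and 12.59 ± 0.12 at 80, 160 and 320 µM (SD, n = 3 each). The 320 µM arrays read 12.64, 12.45 and 12.67, against 11.24, 11.04 and 10.98 in untreated cells. They did not overlap and the rise of 1.50 ± 0.067 is 2.83-fold (adjusted p = 4.33e-14), while 80 µM was not called (95% interval -0.02 to 0.26). EMS raised E2F8 at 24 h only at 4 mM, by 0.80 ± 0.061 (adjusted p = 3.58e-10), with intervals of -0.12 to 0.14 and -0.04 to 0.22 at 1 and 2 mM. FA at 24 h raised it only at 200 µM, by 0.66 ± 0.050 (adjusted p = 4.20e-10). In FA at 4 h it went as E2F7 did. Signals were 11.54, 11.46 and 11.46 at 100 µM and 10.83, 10.77 and 10.78 at 200 µM, against 10.99, 11.05 and 11.09 in untreated cells. The 3 groups were apart, with changes of 0.44 ± 0.050 (adjusted p = 3.15e-07) and -0.25 ± 0.050 (adjusted p = 0.000279), or 0.47 and -0.23 without the array that stood apart. MMS at 320 µM and 4 h raised it by 0.41 ± 0.067 (adjusted p = 5.80e-05). Smaller 4 h rises at 160 µM MMS (0.27 ± 0.067) and 4 mM EMS (0.20 ± 0.061) were lost without experiment 1 or 2 (adjusted p 0.0622 to 0.194) and without any 1 experiment (adjusted p 0.146 to 0.246). Both spindle poisons lowered E2F8 at 24 h at every dose. Its vincristine arrays at the lowest dose read 10.10, 10.11 and 10.18, against 11.10, 11.11 and 11.14 in untreated cells. Every treated array was lower, by 1.98-fold on average (change -0.98 ± 0.047, adjusted p = 1.56e-12). The other 5 spindle poison groups had changes between -0.91 and -0.76, again without overlap.

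**Figure D3:**
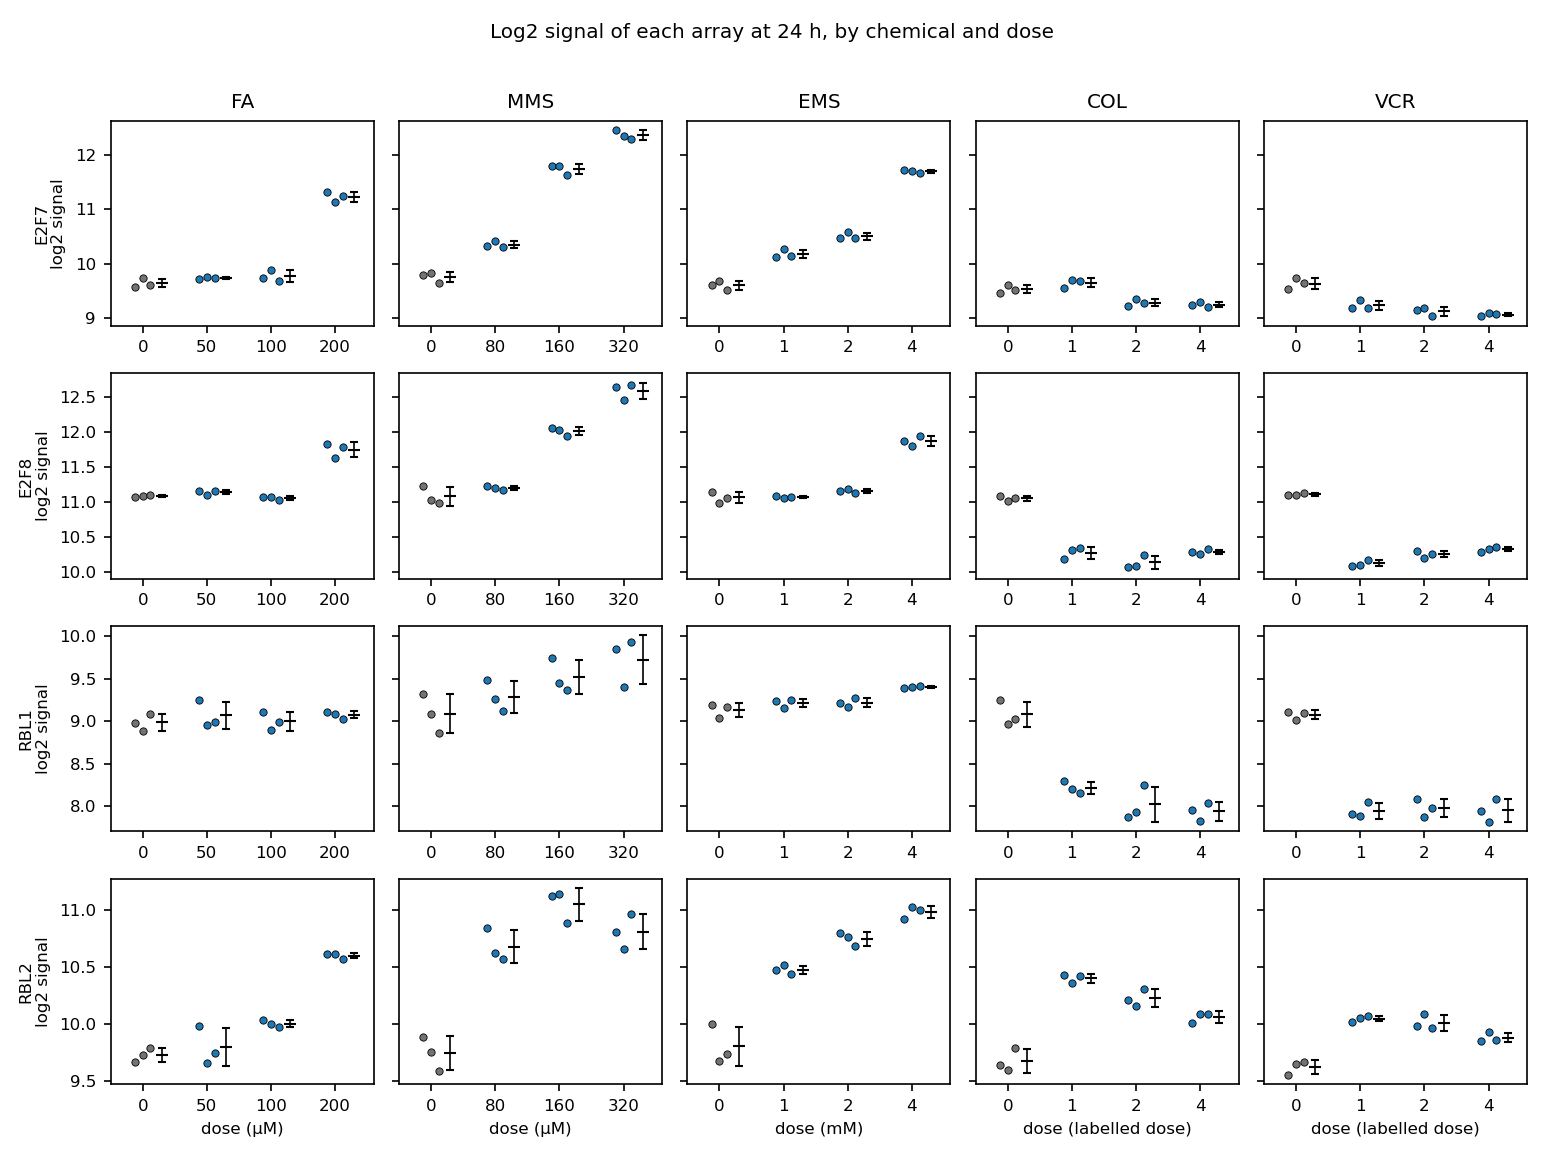
Log2 signal of E2F7, E2F8, RBL1 and RBL2 on each array at 24 h, by chemical and dose, with 0 for untreated cells in grey and treated cells in blue. The bar to the right of the points is the mean ± SD (n = 3), and panels of 1 gene share their axis. E2F7 reaches a mean of 12.36 at 320 µM MMS, RBL1 drops to 7.94 at the highest colcemid dose, and RBL2 lies above its untreated arrays in all groups but 50 µM FA.

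RB1, the retinoblastoma protein itself, rose at 24 h of the alkylating agents. At 160 µM MMS it had signals of 12.91, 12.80 and 12.77, against 12.35, 12.20 and 12.21 in untreated cells. The groups did not overlap, and the change was 0.58 ± 0.075 or 1.49-fold (adjusted p = 1.49e-06). The 80 and 320 µM doses gave 0.44 ± 0.075 and 0.51 ± 0.075, and highest minus lowest dose was not called (95% interval -0.08 to 0.23). EMS raised RB1 by 0.34 ± 0.064, 0.39 ± 0.064 and 0.50 ± 0.064 at 1, 2 and 4 mM, all without overlap. FA at 200 µM and 24 h gave a smaller rise of 0.24 ± 0.065 (adjusted p = 0.0033, or 0.0985 without experiment 2). The single call at 4 h was a fall at 100 µM FA. Its signals were 11.93, 11.84 and 11.86, against 11.92, 12.06 and 12.29 in untreated cells. The groups overlapped, the highest untreated value is the array that stood apart, and the change of -0.21 ± 0.065 (adjusted p = 0.0114) became -0.11 and was not called without it (adjusted p = 0.0987). Under the spindle poisons RB1 was not called at 24 h, with intervals of -0.19 to 0.03 at the highest colcemid and -0.31 to 0.00 at the highest vincristine dose. With the mean of its probe sets RB1 was called lower at those doses, at -0.23 (adjusted p = 0.000817) and -0.26 (adjusted p = 0.000127). The middle doses were called lower in that setting too, at -0.13 for colcemid (adjusted p = 0.039) and -0.19 for vincristine (adjusted p = 0.00286). In the lowest vincristine dose the change was -0.17 ± 0.076 (adjusted p = 0.0941, or 0.0301 with the experiment as a block). That fall was also called with the mean of probe sets (-0.23, adjusted p = 0.000549). It was called as well in 1 fit of all arrays (adjusted p = 0.0444) and without experiment 3 (adjusted p = 0.0276).

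RBL1, the p107 pocket protein, fell under spindle poisons and in early FA. With the highest colcemid dose at 24 h its signals were 7.95, 7.82 and 8.04, against 9.25, 8.97 and 9.02 in untreated cells. With vincristine at the highest dose they were 7.94, 7.82 and 8.09, against 9.11, 9.01 and 9.09 in untreated cells. Neither pair overlapped, and the changes were -1.14 ± 0.093 (a 2.21-fold fall, adjusted p = 5.77e-09) and -1.12 ± 0.11 (a 2.18-fold fall, adjusted p = 2.81e-08). Lower doses were nearly as low, at -0.86 ± 0.093 and -1.06 ± 0.093 for colcemid and -1.13 ± 0.11 and -1.10 ± 0.11 for vincristine. No difference between the highest and lowest dose was called, with 95% intervals before adjustment of -0.47 to -0.09 for colcemid (adjusted p = 0.0514) and -0.21 to 0.23 for vincristine. In FA at 4 h, RBL1 read 8.15, 8.34 and 8.33 at 100 µM and 8.64, 8.61 and 8.56 at 200 µM, against 9.10, 9.30 and 9.57 in untreated cells. Both doses lay below all untreated arrays, with changes of -1.05 ± 0.10 at 100 µM and -0.72 ± 0.10 at 200 µM, or -0.93 and -0.60 without the array that stood apart. The 200 minus 100 µM difference was 0.33 ± 0.10 (adjusted p = 0.0138). It was not called without experiment 1 or 2 (adjusted p 0.0856 to 0.091) or with the mean of probe sets (0.13, adjusted p = 0.0515). At 24 h of FA no dose was called, with an interval of -0.12 to 0.30 at 200 µM. MMS turned RBL1 between the times. At 320 µM and 4 h it was lower by 0.42 (-0.42 ± 0.13, adjusted p = 0.0217, lost without any 1 experiment at 0.0529 to 0.11), and at 24 h it was higher by 0.64 ± 0.13 (adjusted p = 0.000296). The 160 µM dose at 24 h gave 0.43 ± 0.13 (adjusted p = 0.0109, or 0.243 with the mean of its probe sets). EMS at 4 mM gave 0.27 ± 0.11 at 24 h (adjusted p = 0.0418), a call lost without experiment 1 or 2 (adjusted p 0.114 to 0.166) and with no filter on dim genes (adjusted p = 0.0581). With quantile normalization repeated it was 0.23 (adjusted p = 0.14), and with the mean of probe sets 0.06 (adjusted p = 0.451).

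RBL2, the p130 pocket protein that carries the DREAM complex, was the member that rose under every chemical. It was called higher in 14 of 15 comparisons at 24 h, and in each of those 14 all 3 treated arrays lay above all 3 untreated ones. At 160 µM MMS it read 11.12, 11.14 and 10.89, against 9.89, 9.76 and 9.59 in untreated cells. That was its largest rise, 1.31 ± 0.088 or 2.48-fold (adjusted p = 9.05e-11), with 0.94 ± 0.088 at 80 µM and 1.07 ± 0.088 at 320 µM on either side. EMS raised it in the order of dose, by 0.67 ± 0.10, 0.94 ± 0.10 and 1.18 ± 0.10. At 200 µM FA it read 10.62, 10.61 and 10.57, against 9.67, 9.73 and 9.79 in untreated cells, a rise of 0.87 ± 0.068 without overlap (adjusted p = 6.72e-10). A smaller rise at 100 µM FA (0.27 ± 0.068, adjusted p = 0.0221) was lost without any 1 experiment (adjusted p 0.0995 to 0.242). The spindle poisons raised RBL2 most at their lowest dose. For colcemid the mean was 9.68 ± 0.10 in untreated cells and 10.40 ± 0.038, 10.23 ± 0.078 and 10.06 ± 0.049 from the lowest to the highest dose, with changes of 0.73 ± 0.047, 0.55 ± 0.047 and 0.39 ± 0.047. Highest minus lowest colcemid dose was -0.34 ± 0.047 (adjusted p = 5.82e-05). Vincristine gave 0.42 ± 0.064, 0.39 ± 0.064 and 0.26 ± 0.064, the last lost without experiment 1 (adjusted p = 0.0728) or with the mean of both probe sets (0.0757). Its highest minus lowest dose was -0.17 ± 0.064, short of the threshold (adjusted p = 0.0871). At 4 h the only call was a fall at 200 µM FA, -0.22 ± 0.068 (adjusted p = 0.0103), which was not called without the array that stood apart (-0.15, adjusted p = 0.0772).

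**Figure D4:**
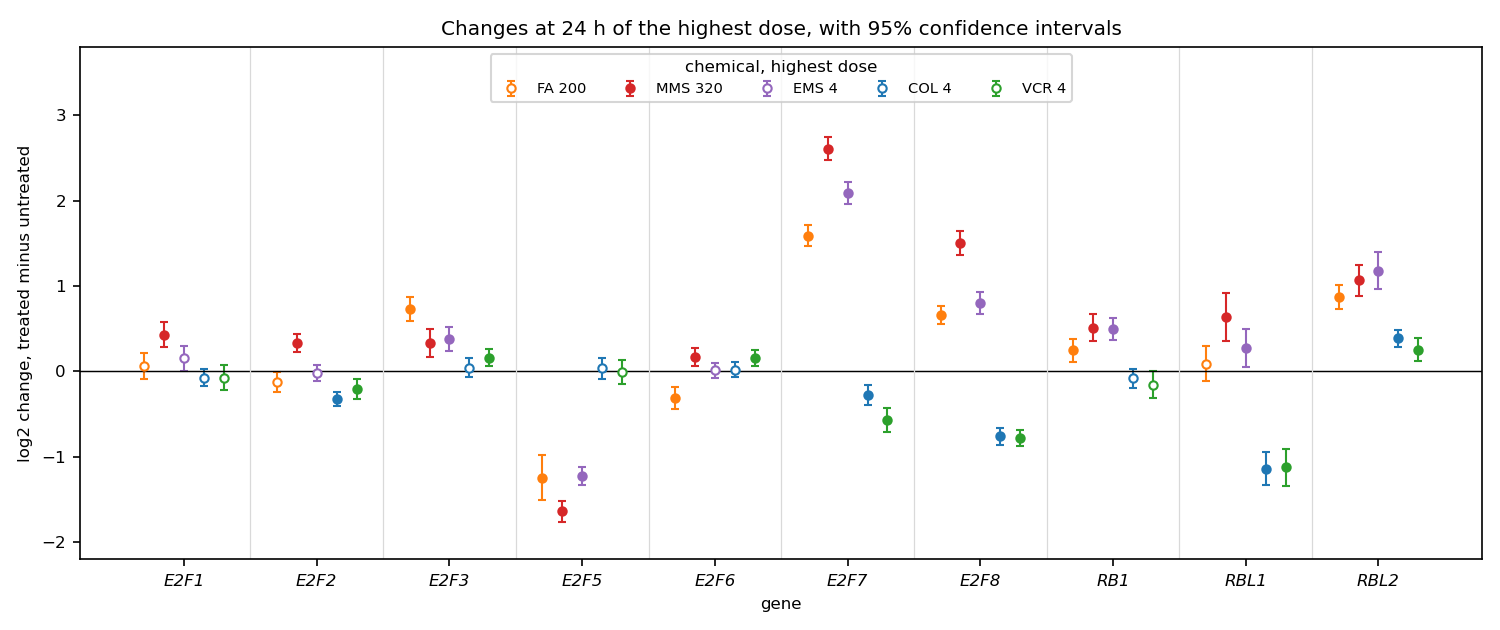
Log2 change of each member after 24 h of the highest dose of each chemical, treated minus untreated cells, with the 95% confidence interval from limma (n = 3 arrays per group). Filled points have an adjusted p under 0.05. E2F7 and E2F8 lie above 0 for FA, MMS and EMS and below 0 for colcemid (COL) and vincristine (VCR), and RBL2 lies above 0 for all 5.

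The highest-dose change at 24 h was also set against that at 4 h within each set. The difference was called for 8 of 10 members with FA (53.3% of genes), 7 with MMS (45.2%), 8 with EMS (38.3%), 4 with colcemid (22.5%) and 4 with vincristine (22.4%). E2F7 was farthest apart with FA, where its change was lower at 4 h and higher at 24 h (difference 2.88 ± 0.087, adjusted p = 4.89e-16). RBL1 turned between the times with MMS (difference 1.06 ± 0.19, adjusted p = 8.57e-05).

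MMS and EMS are the methyl and ethyl esters of the same sulfonic acid, given here at different doses (µM for MMS, mM for EMS), so their values are only set side by side. At 24 h of the highest doses, 320 µM MMS and 4 mM EMS, E2F7 changed by 2.61 and 2.09, E2F8 by 1.50 and 0.80, E2F5 by -1.64 and -1.22, RBL2 by 1.07 and 1.18, RB1 by 0.51 and 0.50, and E2F3 by 0.33 and 0.38. RBL1 changed by 0.64 and 0.27. E2F1 changed by 0.43 and 0.15, and E2F2 by 0.33 and -0.02. The EMS value of E2F1, not called here, was called with the mean of probe sets (0.13, adjusted p = 0.0284) and without experiment 3 (0.23, adjusted p = 0.0326), and the MMS value of E2F2 was -0.02 with the mean of probe sets. At the lowest doses, 80 µM MMS and 1 mM EMS, E2F7 changed by 0.59 and 0.57, RBL2 by 0.94 and 0.67, RB1 by 0.44 and 0.34, and E2F5 by -0.36 and -0.32. These pairs were not tested against each other.

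The design sets clastogens against aneugens, and this was tested as the mean highest-dose change of MMS and EMS minus that of colcemid and vincristine. At 24 h, 9 of 10 members were called, against 54.6% of genes: 8 higher (29.9% of genes) and 1 lower (24.7%). E2F7 differed by 2.77 ± 0.062 (adjusted p = 9.84e-49), E2F8 by 1.92 ± 0.055 (adjusted p = 1.92e-42) and RBL1 by 1.59 ± 0.12 (adjusted p = 8.52e-20). E2F7 and E2F8 rose with both clastogens and fell with both aneugens at the highest dose. RBL1 fell with both aneugens, and its rise rests mainly on MMS, since the EMS change was 0.06 and not called with the mean of probe sets (adjusted p = 0.451). RBL2 rose in both classes and still differed by 0.80 ± 0.081 (adjusted p = 6.62e-14). E2F5 was lower with the clastogens, at -1.45 ± 0.059 (adjusted p = 2.16e-33). RB1, E2F2, E2F1 and E2F3 differed by 0.62, 0.42, 0.37 and 0.25. E2F6 was not called (95% interval -0.08 to 0.09). At 4 h, 7 members were called against 23.6% of genes, with E2F7 (0.74 ± 0.062), E2F5 (-0.47 ± 0.059) and RBL1 (-0.44 ± 0.12) the farthest apart. The class contrast takes each change against the untreated arrays labelled for that chemical.

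The genes around the members were counted in lists drawn from textbook knowledge of the pathway, with earlier results of these data known. CCNE1, CCNE2, CDC25A, MYBL2 and CDKN1A stand in more than 1 list. Of 33 tested G1/S targets of E2F (35 listed), 29 rose and 1 fell at 24 h of 320 µM MMS, with a median change of 0.499 against -0.039 over all tested genes. TK1, the salvage kinase for thymidine, rose by 2.03 ± 0.076 (adjusted p = 2.54e-15), the licensing factor CDT1 by 1.51 ± 0.088 (adjusted p = 2.86e-12) and CCNE2, a cyclin E, by 1.24 ± 0.10 (adjusted p = 9.85e-10). EMS at 4 mM and 24 h raised 20 and lowered 6 (median 0.167 against -0.0147 over all genes), and FA at 200 µM and 24 h raised 8 and lowered 13 (median -0.111 against -0.0252). Of all genes, 30.8% rose and 27.7% fell with MMS, 27.8% and 23.6% with EMS and 23.8% and 23.9% with FA. The rises with FA are near that share. Under the spindle poisons at 24 h of the highest dose none rose: 32 of 33 fell with colcemid (median -0.443 against -0.00209) and 31 of 33 with vincristine (median -0.383 against -0.00109). Of all genes, 18% rose and 18.3% fell with colcemid and 17.5% and 18.2% with vincristine. CCNE2 fell by 1.01 with colcemid (-1.01 ± 0.074, adjusted p = 1.17e-09) and by 1.29 with vincristine (-1.29 ± 0.071, adjusted p = 9.23e-12), and the primase subunit PRIM1 by 0.86 and 0.69. At 4 h, 21 of 33 rose and 1 fell with 320 µM MMS (15.3% and 13.4% of all genes, median 0.216 against 0.00362), and 17 rose and 0 fell with 4 mM EMS (5.55% and 4.05%, median 0.114 against -0.000848). With 200 µM FA at 4 h, 11 rose and 8 fell, where 29.6% and 24.2% of all genes did, so the count is near that background (median 0.0328 against 0.0785). Without the untreated array that stood apart, 10 rose and 6 fell. In FA at 4 h CCNE1, the other cyclin E, was the member of the list that fell most (-0.83 ± 0.054, adjusted p = 3.01e-11, or -0.86 without that array). The class contrast at 24 h called 33 of 33 higher with the clastogens, where 29.9% of all genes were called higher (median 0.722 against -0.0277 over all genes).

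G2/M genes that DREAM represses were counted in the same way. At 4 h of the highest dose, 17 of 20 fell with MMS (median -0.523 against 0.00362 over all genes), 14 of 20 with EMS (median -0.363 against -0.000848) and 12 of 20 with 200 µM FA (median -0.305 against 0.0785), and none rose. Of all genes, 13.4%, 4.05% and 24.2% fell in that order, and 15.3%, 5.55% and 29.6% rose. CCNB1, the mitotic cyclin B, fell by 0.98 at 4 h of MMS (-0.98 ± 0.055, adjusted p = 2.78e-11), and KIF23, a kinesin of cell division, by 1.23 at 4 h of FA (-1.23 ± 0.077, adjusted p = 1.59e-11, or -1.19 without the untreated array that stood apart, where the count was again 12 of 20). At 24 h the list split, with 6 higher and 11 lower for MMS, 7 and 7 for EMS, 2 and 11 for FA, 4 and 10 for colcemid and 9 and 5 for vincristine. Of all genes, 30.8% rose and 27.7% fell with MMS, 27.8% and 23.6% with EMS and 23.8% and 23.9% with FA. The shares were 18% and 18.3% with colcemid and 17.5% and 18.2% with vincristine. The rises with MMS, EMS and colcemid are near these shares. The list's medians were -0.217, 0.0181, -0.161, -0.103 and 0.0634 in the same order, against -0.039, -0.0147, -0.0252, -0.00209 and -0.00109 over all genes. CDK1, the mitotic kinase, fell under both spindle poisons (-0.89 ± 0.053 with colcemid and -1.06 ± 0.055 with vincristine), while CCNB1 rose under both (0.42 ± 0.052 and 0.64 ± 0.053).

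**Figure D5:**
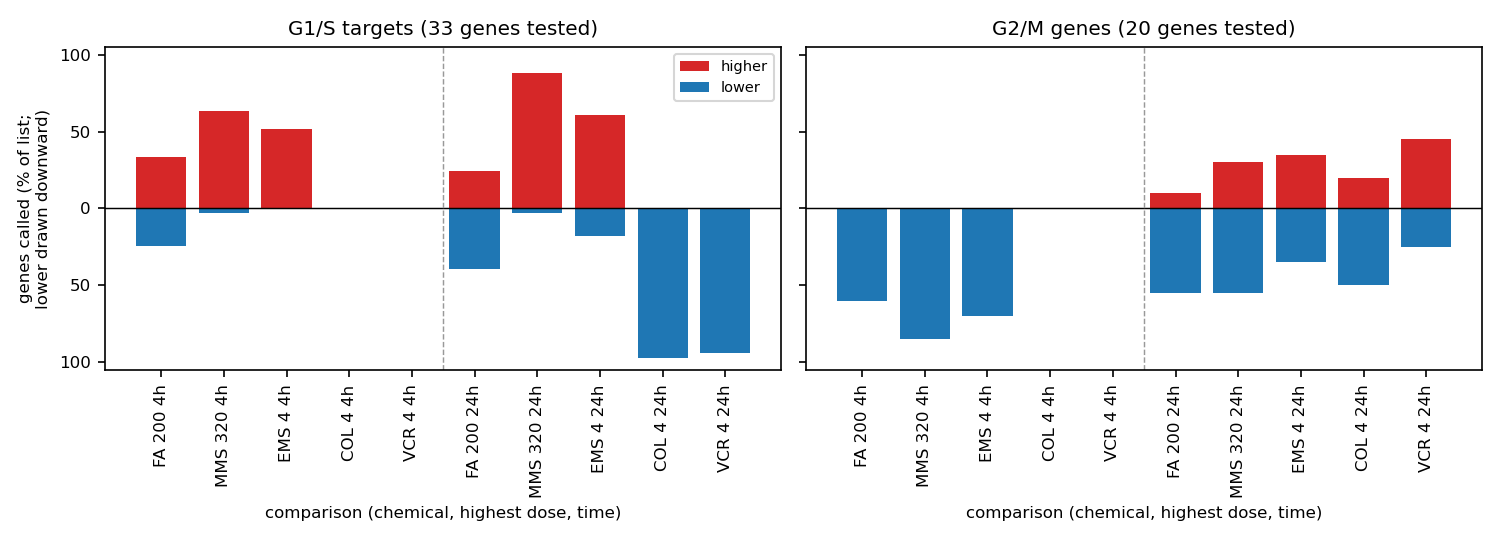
Share of the tested genes of 2 lists called higher (red, upward) or lower (blue, downward) at the highest dose of each chemical, at 4 h left and 24 h right of the dashed line. In the list of 33 G1/S targets, 29 are higher at 24 h of MMS and 32 are lower with colcemid, and in the list of 20 G2/M genes 17 are lower at 4 h of MMS.

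Partners of the members were counted as well. Of 9 partners and DREAM subunits, at 24 h of the highest dose 2 rose and 4 fell with FA, 3 rose and 2 fell with MMS, 3 rose and 2 fell with EMS, 1 rose and 5 fell with colcemid and 1 rose and 4 fell with vincristine. Of all genes 23.8% rose and 23.9% fell with FA, 30.8% and 27.7% with MMS, 27.8% and 23.6% with EMS, 18% and 18.3% with colcemid and 17.5% and 18.2% with vincristine, and the counts with MMS and EMS are near these shares. The list's medians were -0.0978, 0.0333, 0.0621, -0.288 and -0.184 in the same order of chemicals, against -0.0252, -0.039, -0.0147, -0.00209 and -0.00109 over all genes. LIN37, a DREAM subunit needed for repression, rose by 0.98 ± 0.092 with FA, 1.83 ± 0.13 with MMS and 1.21 ± 0.12 with EMS (adjusted p = 1.32e-08, 5.30e-11 and 1.39e-08). LIN9, another subunit of the complex, fell by 1.32 at 4 h of 200 µM FA (-1.32 ± 0.14, adjusted p = 5.77e-08, or -1.21 without the untreated array that stood apart). E2F4, the main DREAM E2F, was called in 1 of the 30 dose comparisons, at 24 h of 320 µM MMS, by -0.25 ± 0.10 (adjusted p = 0.0355). Among 7 tested proteins of the E2F6 complex, PCGF6, its Polycomb subunit, rose by 1.15 ± 0.061 at 24 h of MMS (adjusted p = 6.52e-13), and MGA, its DNA-binding partner, fell by 1.11 at 4 h of 200 µM FA (-1.11 ± 0.12, adjusted p = 1.56e-07, or -0.99 without that array). In that list 2 rose and 4 fell at 4 h of FA (median -0.155 against 0.0785 over all genes), or 2 and 5 without the array, and 3 rose and 4 fell at 24 h of MMS (median -0.115 against -0.039). Of all genes, 29.6% rose and 24.2% fell at 4 h of FA, so the rises there are near that share. At 24 h of MMS 30.8% rose and 27.7% fell.

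Upstream of the pocket proteins, the kinase inhibitors and the kinases were counted too. CDKN1A (p21), which blocks the kinases that release E2F, rose at 24 h of every highest dose, by 1.93 ± 0.064 with FA, 2.25 ± 0.047 with MMS, 1.93 ± 0.038 with EMS, 1.04 ± 0.042 with colcemid and 0.81 ± 0.054 with vincristine. CDKN2D, an inhibitor of CDK4 and CDK6, rose by 0.68 ± 0.080 with FA, 0.72 ± 0.070 with MMS, 0.43 ± 0.069 with EMS and 0.35 ± 0.073 with colcemid, and was not called with vincristine (0.16 ± 0.076, adjusted p = 0.116). CDKN1B rose with FA (0.33 ± 0.055) and fell with colcemid (-0.18 ± 0.049) and vincristine (-0.18 ± 0.059). Of the 5 tested inhibitors at 24 h, 3 rose and 0 fell with FA, 2 and 0 with MMS and 2 and 0 with EMS. Colcemid raised 2 and lowered 1, and vincristine raised 1 and lowered 1. Of all genes, 23.8% rose and 23.9% fell with FA and 27.8% and 23.6% with EMS, and the other shares are given below. At 4 h of 200 µM FA, 5 of 5 tested inhibitors rose, CDKN1A by 0.21 ± 0.064 (median of the list 0.388 against 0.0785 over all genes), and 5 of 5 without the array that stood apart. Of all genes, 29.6% rose there, or 26.1% without that array. Of 10 cyclins, kinases and the phosphatase CDC25A, 5 rose and 4 fell at 24 h of MMS (median 0.195 against -0.039 over all genes), where CCND3 rose by 1.15 ± 0.053 and CCND2 and CDK6 gave -1.15 ± 0.064 and -1.09 ± 0.045. Of all genes, 30.8% rose and 27.7% fell with MMS. With colcemid 1 rose and 7 fell, among them CDK2 (-0.58 ± 0.037), and with vincristine 1 rose and 5 fell (medians -0.257 and -0.174, against -0.00209 and -0.00109 over all genes). The shares of all genes were 18% and 18.3% with colcemid and 17.5% and 18.2% with vincristine.

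Genes with a like pattern were found by Pearson's correlation over the 30 changes, in which the 3 doses of a set and time share untreated arrays, so the values only describe. E2F7 was most like ZNF564 (0.971), USP49 (0.966) and ZNF226 (0.964), and E2F8 most like WDR90 (0.969), RAD51AP1 (0.969) and DTL (0.964). RBL1 was most like SLTM (0.975), BARD1 (0.968) and MELK (0.964), and RBL2 most like WDFY1 (0.972), PAPLN (0.964) and TP53I3 (0.964). RB1 was most like KAT2B (0.963), VPS13C (0.960) and ATP7A (0.958). E2F1 lay nearest DNAJC9 (0.943), RTN3 (0.926) and ERI1 (0.925), E2F2 nearest CHAF1A (0.936), RMI1 (0.936) and MCM10 (0.934), and E2F3 nearest MSL2 (0.974), STK35 (0.962) and SP3 (0.960). E2F5 lay nearest SACM1L (0.942), MTMR4 (0.936) and CAV1 (0.935), and E2F6 nearest ZBTB2 (0.907), C12orf60 (0.874) and SRXN1 (0.869). Among the members themselves E2F7 and E2F8 were most alike (0.847) and E2F5 and E2F7 most opposed (-0.736).

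Most members have dimmer probe sets beside the one used, and these did not all follow it. E2F6 and E2F8 have none. The second probe sets of E2F1, E2F3, E2F5, E2F7, RB1 and RBL2 correlated with the used one at 0.861, 0.890, 0.841, 0.854, 0.777 and 0.916 over the 30 changes, and none was called in the opposite direction where the used one was called. The dimmer sets of E2F2 correlated at 0.466 and 0.457. Those of RBL1 correlated at 0.796, 0.568 and 0.0549, the last with a mean signal of 4.06. Where the used sets were called, opposite calls came from 1 set of E2F2 in 1 comparison and from 2 sets of RBL1 in 1 and 2 comparisons.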

How the data were processed

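Total RNA of TK6 cells was measured on 120 Affymetrix HG-U133 Plus 2 arrays, 3 in each of 40 groups. The deposited log2 values per probe set were made by the authors with RMA, per the submitters' processing notes, with no version given, and whether all arrays were normalized together is not stated. Precision is limited by the number of arrays. Of 54675 probe sets, 62 were controls, 41091 named 1 gene symbol, 1801 several and 11721 none, per GEO's platform annotation. Each of 19775 genes was read from its brightest single-symbol probe set. Genes with fewer than 3 arrays at 6.183 or above (the median probe set's mean signal) were dropped, which left 14023.

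Linear models used limma 3.58.1 (R 4.3.3, with version 1.17.8 of data.table), and figures were drawn in python 3.11.15 with numpy 2.4.6, pandas 2.3.3 and matplotlib 3.10.9. Each set's 24 arrays were fitted with 8 group means, the class contrast on 96 arrays and the untreated contrast on 30. The moderated test was two-sided, with Benjamini-Hochberg adjustment over the 14023 genes of each comparison. The fit was tested on simulated data. Arrays with the same experiment number deviated together in 29 of 30 comparisons (median correlation 0.286), and every pair passed 0.1 in 19, so values with the experiment as a block are given beside results of those 19 where a call changes. Alternatives were the block, no filter, the mean of a gene's probe sets, repeated quantile normalization, 1 fit of all arrays, each experiment left out, and the untreated FA array of experiment 3 at 4 h left out (for the gene lists this was added after the data were seen). Named genes are the members, up to 4 called genes of each list with the largest change, 3 check genes and the 3 genes most like each member. Among list genes that were not tested are RNF2, CDKN2B and CDKN2C. Members and lists were chosen with earlier results of these data known. Promoters come from RefSeq, GRCh38.p14.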

Additional observations from a re-analysis of the deposited data

Results flagged for a closer look

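The change at the highest dose differed between 24 h and 4 h for many members, tested as the 24 h change minus the 4 h change within a set (limma, adjusted p under 0.05 over all tested genes). With FA 8 members were called, against 53.3% of all tested genes. The differences were 2.88 for E2F7, 2.76 for E2F3, 1.09 for RBL2, 0.91 for E2F8, 0.81 for RBL1, 0.63 for E2F2, 0.37 for E2F6 and 0.30 for RB1. Without the untreated FA array that stood apart these were 2.83, 2.74, 1.02, 0.89, 0.69, 0.57, 0.39 and 0.20, in the same order, and all were still called.

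With MMS 7 members were called, against 45.2% of genes: E2F7 (1.77), E2F8 (1.09), RBL1 (1.06), RBL2 (1.05), RB1 (0.59), E2F6 (-0.22) and E2F5 (-1.17). With EMS 8 members were called, against 38.3% of genes: E2F7 (1.41), RBL2 (1.05), E2F8 (0.61), RB1 (0.52), RBL1 (0.52), E2F3 (0.27), E2F6 (-0.20) and E2F5 (-0.87). With colcemid 4 members were called, against 22.5% of genes: RBL2 (0.40), E2F2 (-0.27), E2F8 (-0.78) and RBL1 (-1.18). With vincristine 4 members were called, against 22.4% of genes: E2F2 (-0.23), E2F7 (-0.67), E2F8 (-0.97) and RBL1 (-1.29).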

How the results depend on the processing

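Of 125 member calls in the 30 dose comparisons, 84 held under every alternative tried and 101 under all but leaving out an experiment. With the experiment as a replicate block no call was lost and 6 were gained, among them E2F5 at 4 h of 80 µM MMS (adjusted p = 0.0286) and RB1 at 24 h of the highest vincristine dose (adjusted p = 0.0439). The number of members called at 4 h of the highest vincristine dose was 1 with the block and 0 without it, where 110 and 35 of 14023 genes were called. Averaging all probe sets of a gene turned the sign of RB1 at 4 h of FA (0.0046 at 100 µM and 0.26, then called higher, at 200 µM) and in the FA time difference (-0.047). It also turned E2F2 at 24 h of 160 and 320 µM MMS (-0.025 and -0.024), RBL1 between the highest and lowest FA dose at 24 h (-0.13), and, in untreated cells between the times, RB1 (-0.027) and RBL1 (0.00056). It moved the members called at 4 h of 320 µM MMS to 5, against 8, where 3663 of 12384 genes were called, against 4016 of 14023. At 4 h of 4 mM EMS, 5 members were called, 3 without the filter on dim genes and 2 to 3 with an experiment left out. Genes called there went from 1346 of 14023 to 1084 of 19775 without the filter. With an experiment left out they were 463 to 560 of 14023. Leaving out an experiment gave 4 to 6 members at 24 h of the highest vincristine dose, against 7, and 4 to 7 in the class contrast at 4 h, against 7. Genes called fell as well, from 5011 to between 3464 and 4349 with vincristine. In the class contrast they fell from 3310 to between 2104 and 2712. The cause was not tested. The deposited values carry no detection calls, so it was not analysed here which dim probe sets lay above background. Changes of dim sets may be understated on this scale, which was not tested.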
